A study of Mus musculus with 18 samples.

Results

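Mitochondrial ribosomal protein genes were defined here as every gene of the count table whose symbol starts with Mrpl or Mrps, a rule that uses names and no measured value. It took in 76 of the 11243 genes. By general knowledge of the mitochondrial ribosome, 49 of the 76 encode proteins of the large subunit and 26 proteins of the small subunit. Mrps18a and Mrps30 were counted in the large subunit, where their proteins sit despite the symbol. Mrps36 carries the name but is now placed in the oxoglutarate dehydrogenase complex, so it was kept as a member of neither subunit. Of the 75 subunit genes, 46 have a bacterial ribosomal counterpart and 29 are particular to mitochondria.

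The cells were RAW264.7, a transformed mouse macrophage line, so all values describe one proliferating line. Control cells received vehicle (DMSO), the LPS group received 500 ng/mL LPS for 6 h, and the LPS plus torin1 group received 100 nM torin1 from 15 min before the same LPS dose. LPS is a bacterial cell wall component that activates macrophages, and torin1 inhibits the mTOR kinase. Each of the 3 treatments was carried out in 3 independent experiments, and each of the 9 lysates was read both as total mRNA and, after a gradient, as the pooled heavy polysome fraction, 18 libraries in all. All cells were washed and lysed with cycloheximide, which holds ribosomes on mRNA, and torin1 without LPS was not analysed here.

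Mitochondrial ribosomes translate the few mRNAs of the mitochondrial genome, which encode subunits of the respiratory chain and of ATP synthase. All of their proteins are encoded in the nucleus, translated on cytosolic ribosomes and imported, so their mRNAs can be followed in cytosolic polysomes like any other. mTOR is known for promoting the translation of mRNAs with a terminal oligopyrimidine (TOP) start, which include those of cytosolic ribosomal proteins, and of mRNAs for mitochondrial proteins. The comparisons below ask how the mRNAs of the mitochondrial ribosome responded to LPS alone and after mTOR inhibition, both overall and on polysomes, and whether polysome levels moved beyond overall levels.

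The libraries held 27800983 to 47725557 counts each, of which the 76 genes took 0.247% to 0.548%. The lowest count of a member in a library was 8, for Mrps34, and every other member stayed at 86 counts or more. Macrophage transcripts were present throughout: Csf1r, the receptor for the macrophage growth factor, ranged over 2380 to 2568 CPM (read counts scaled to library size and TMM factor) in control total mRNA, 1123 to 1372 with LPS and 840 to 939 with LPS plus torin1. The cytokine Il1b rose from 0.548 to 3.39 CPM in control total mRNA to 1157 to 2938 CPM with LPS. Experiment 2 stood apart in control cells in mRNAs of the mitochondrial genome, which cytosolic ribosomes do not translate. Their median polysome minus total difference was -2.97 and -2.80 on the log2 scale in experiments 1 and 3, but -1.74 in experiment 2. Their summed CPM in experiments 1 to 3 was 20633, 17202 and 21579 in control total mRNA and 4162, 6585 and 5996.5 on control polysomes. Experiment 2 was thus lowest in total mRNA and highest on polysomes, which does not place the deviation in 1 library. The part of this in the results was not tested, and the counts for polysome mRNA are also given without each experiment. In whole cultures, fewer cells that express a gene and less of its mRNA per cell cannot be told apart. Of the 76 genes, 40 overlap another annotated gene, 12 of them on the same strand, and the strand setting of the counting is not given in the sources used here.

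The mRNAs of the mitochondrial ribosome were of moderate abundance. Per kilobase of exon, the median member reached 15.8 CPM in control total mRNA. Mrps21 was highest at 82.1 CPM per kilobase, followed by Mrpl18 at 65.7 and Mrpl20 at 46.4. The lowest were Mrps34 at 0.720, Mrps10 at 3.26 and Mrpl48 at 4.53 CPM per kilobase. The summed CPM of all members was 3344.5 ± 101.02 (SD, n = 3) in control total mRNA, 3276 ± 131.05 with LPS and 2724 ± 86.6 with LPS plus torin1. On polysomes the sum was 4513 ± 112.9, 4424 ± 288 and 3465 ± 289 in the same order. In both RNA types the sums of control and LPS libraries overlapped, and all 3 libraries with torin1 lay below both. Without TMM, the members' share of counts in total mRNA was 0.378% to 0.398% in control and 0.290% to 0.301% with LPS. On polysomes it was 0.503% to 0.548% and 0.373% to 0.418%, so the shares did not overlap in either RNA type. The small-subunit sum did not overlap between control and LPS in total mRNA, at 898 ± 13.2 CPM with LPS against 1008 ± 28.7 in control, whereas the large-subunit sum was 2369 ± 117.1 against 2327 ± 72.0 and did. On polysomes the small-subunit sum did not overlap either, at 1095 to 1192 CPM with LPS and 1272 to 1338.5 CPM in control. No test was run on the sums.

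**Figure D1:**
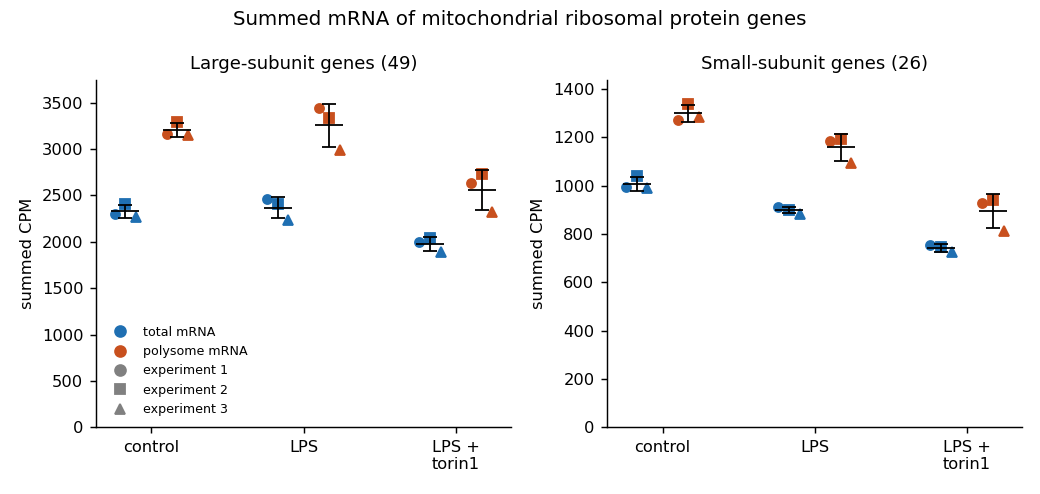
Summed CPM of large-subunit genes (left) and small-subunit genes (right) by treatment, with a point for each library, the mean as a horizontal line and the SD as bars (n = 3). Blue is total and orange is polysome mRNA, and point shape is the experiment. Small-subunit total mRNA ran from 884 to 910 CPM with LPS and from 724 to 755 CPM with LPS plus torin1.

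The promoters of the members were searched for letters bound by factors known to drive nuclear genes of mitochondria. How the letters relate to the changes given below was not tested. RefSeq promoter windows on GRCm38.p6, from 250 bases before to 50 bases after an annotated start, were at hand for 67 members (73 windows). Motifs were searched on both strands, as GCGCA then any base then GCGC (NRF1), CCGGAAG (the ETS family, which includes GABPA), AAGATGGCG (YY1) and CACGTG (the E-box bound by MYC). The NRF1 letters were in 17.8% of member windows, 10.7% of the windows of all genes in the table and 7.14% of those of cytosolic ribosomal proteins. The ETS letters were in 32.9%, 18.4% and 35.7% in the same order, highest for cytosolic ribosomal proteins. The YY1 letters were in 8 of 73 member windows, 3.23% and 7.14%, and the E-box letters in 9.59%, 10.1% and 11.4%. A start with a C followed by at least 4 pyrimidines, as TOP mRNAs have, was found at 0 of 73 annotated member starts, at 2.30% of all starts and at 21.4% of the 70 starts of cytosolic ribosomal proteins. These matches describe letters only, and an annotated start can differ from the one used in these cells. Windows of 8 members that are among those with the largest changes and hold a motif are shown with the motif in capitals, 5′ to 3′ along the gene's strand; CTTCCGG is CCGGAAG read from the other strand. They cover GRCm38.p6 chr14:54426851-54426880 (Mrpl52, plus strand), chr16:84735350-84735379 (Mrpl39, minus), chr1:37890384-37890413 (Mrpl30, plus), chr11:120484546-120484575 (Mrpl12, plus), chr10:95501903-95501932 (Mrpl42, minus), chr17:12916312-12916341 (Mrpl18, minus), chr2:130563732-130563761 (Mrps26, plus) and chr8:71464878-71464907 (Mrpl34, plus). The windows of Mrps6, Mrps7 and Mrpl49, which also led changes, hold none of the 4 motifs, and no window was at hand for Mrps35.
Mrpl52, ETS: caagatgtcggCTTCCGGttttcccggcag
Mrpl39, NRF1: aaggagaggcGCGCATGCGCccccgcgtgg
Mrpl30, NRF1: tgacgccgctGCGCCTGCGCtgtcttctat
Mrpl12, NRF1: tattgtctccGCGCCTGCGCgtcgcaccgc
Mrpl42, YY1: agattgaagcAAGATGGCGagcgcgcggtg
Mrpl18, ETS: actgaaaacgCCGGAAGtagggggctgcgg
Mrps26, ETS: ctccgcggccaCTTCCGGgccgggcgcagg
Mrpl34, ETS: aactacagctcCCGGAAGgccccgcggcaa

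LPS alone shifted members of the mitochondrial ribosome in both directions. In total mRNA 21 of 76 rose and 27 fell, with edgeR's quasi-likelihood test at an adjusted p of at most 0.25, the threshold of the study. Over all genes 66.5% passed this test, 32.2% higher and 34.3% lower, so the members' share was near the background. Their median log2 fold change was -0.07, against -0.02 over all genes. Of large-subunit genes 18 rose and 17 fell (median -0.02), and of small-subunit genes 3 rose and 10 fell (median -0.14); the subunits were not tested against each other. At an adjusted p of at most 0.05, 9 members rose and 15 fell, where 45.6% of all genes passed. Scaling by library totals in place of TMM, an alternative added after the data were seen, moved the median of all genes to -0.38 and that of the members to -0.44, with 2 members higher and 59 lower, where 77.3% of all genes passed and 15.3% were higher, so directions hold relative to the bulk of genes.

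Mrpl52, a large-subunit protein with no bacterial counterpart, had the largest rise. Its total mRNA was at 19.9, 14.2 and 16.9 CPM in the control experiments, 58.3, 73.4 and 47.3 CPM with LPS and 70.5, 61.3 and 55.4 CPM with LPS plus torin1. Every stimulated library lay above every control library, and the stimulated groups overlapped each other. The rise with LPS was 1.81 ± 0.18 (SE) on the log2 scale, or 3.52-fold, with an adjusted p of 2.71e-05. On polysomes it read 30.1, 22.0 and 25.4 CPM in control and 62.1, 88.4 and 36.7 CPM with LPS. The polysome groups did not overlap either, though the LPS libraries were far apart, and the rise was 1.28 ± 0.35 with an adjusted p of 0.0186.

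Mrpl39, another mitochondria-specific protein of the large subunit, rose in both RNA types. Total mRNA was at 60.4, 68.7 and 58.1 CPM in control and 102.4, 92.7 and 77.2 CPM with LPS, a rise of 0.54 ± 0.13. Its polysome mRNA was at 60.3, 67.8 and 71.3 CPM in control and rose by 0.63 ± 0.13 with LPS, with no overlap in either. Mrpl27, the counterpart of a bacterial protein near the peptidyl transferase centre, rose by 0.42 ± 0.12 in total mRNA. Mrpl30 rose on polysomes by 0.53 ± 0.25, from 65.0, 118.3 and 78.0 CPM to 154, 123.98 and 99.5 CPM. These groups overlapped because experiment 2 was high in control, and the call was lost without experiment 1, at 0.19.

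The largest falls shared by the 3 experiments were in Mrps35, Mrps6 and Mrpl49. Mrps35, a small-subunit protein particular to mitochondria, went from 39.0, 46.5 and 43.9 CPM in control total mRNA to 21.7, 20.6 and 22.8 CPM with LPS. No LPS library reached the lowest control, and the fall was -0.99 ± 0.10 on the log2 scale (adjusted p of 3.75e-05). Mrps6, the counterpart of bacterial S6, went from 38.7, 42.8 and 39.8 CPM to 20.8, 21.8 and 23.5 CPM, a change of -0.88 ± 0.11. It overlaps Slc5a3 on the same strand, so its reads may include that gene's. Mrpl49 fell by 0.87 on the log2 scale (SE 0.11), from 54.3, 47.6 and 55.3 CPM to 31.1, 25.5 and 29.1 CPM, and overlaps Syvn1 on the other strand. Mrps34 passed at -1.09 ± 0.54, but its experiments read -3.11, 0.66 and -1.34, and the call was lost without experiment 1 or 3.

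Members with particular roles varied with LPS. Of the proteins of the stalk that recruits translation factors, Mrpl12 fell in total mRNA (-0.46 ± 0.27), although not in every experiment and not without experiment 1 or 3, while Mrpl10 (-0.11 ± 0.09) and Mrpl11 (0.03 ± 0.09) did not pass. The decoding-site protein Mrps12 was at -0.43 ± 0.34 and Mrpl45, which tethers the ribosome to the inner membrane, at 0.05 ± 0.10, and neither passed. All 3 paralogues of bacterial S18 rose, Mrps18a by 0.25 ± 0.08, Mrps18b by 0.38 ± 0.11 and Mrps18c by 0.24 ± 0.15, but Mrps18c lost its call without experiment 1 or 2. Mrps30 fell by 0.22 (SE 0.10), and Mrps36 was at -0.07 ± 0.14 without passing.

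On polysomes LPS gave 12 members higher and 20 lower, where 55.1% of all genes passed (26.4% higher and 28.7% lower). The median was -0.06, against -0.03 over all genes. At an adjusted p of at most 0.05, 2 rose and 7 fell, where 15.9% and 16.6% of all genes did. The largest falls that were shared by the 3 experiments were in Mrps6 (-0.93 ± 0.15), Mrps26 (-0.88 ± 0.28) and Mrpl12 (-0.83 ± 0.40). Mrps26 polysome mRNA was at 125.4, 84.1 and 113.2 CPM in control and 50.7, 73.9 and 50.8 CPM with LPS, so experiment 2 came closest. Without experiment 1 or 3 the count dropped to 12 members in each case, where 34.7% and 37.6% of all genes passed, and without experiment 2 it was 46, where 64.5% passed. Mrps26 and Mrpl12 lost their calls without experiment 1, at -0.65 and -0.51.

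With torin1 added to LPS, most mitochondrial ribosomal protein mRNAs fell. Compared with LPS alone, 49 of 76 fell in total mRNA and 1 rose, where 26.4% of all genes fell and 27.3% rose (53.7% called in all). The members' median was -0.27, against 0.00 over all genes, and the medians within experiments 1 to 3 were -0.26, -0.27 and -0.22. Large-subunit genes gave 30 falls of 49 and small-subunit genes 18 of 26, and Mrps36 fell too. Genes with a bacterial counterpart gave 34 falls of 46 (median -0.32), and genes particular to mitochondria 14 of 29 (median -0.19). For 44 members the 3 libraries with torin1 did not overlap the 3 with LPS alone, against 42.0% of all genes. At an adjusted p of at most 0.05 the count was 25, all lower, where 13.5% of all genes fell and 15.6% rose. Without experiments 1, 2 and 3 in turn, 35, 42 and 31 members were called, where 46.1%, 47.9% and 35.2% of all genes were.

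Mrps7, which binds the head of the small subunit, did not pass the test with LPS alone and fell with torin1. Its total mRNA was at 59.9, 62.7 and 61.97 CPM in control, 60.4, 58.1 and 64.8 CPM with LPS and 40.1, 40.1 and 39.7 CPM with LPS plus torin1. The libraries with torin1 were almost equal and far below the rest, and the fall from LPS was -0.61 ± 0.08 (adjusted p of 0.000666). On polysomes it was at 96.7, 86.0 and 78.4 CPM with LPS and 54.5, 57.5 and 41.2 CPM with torin1 added, a fall of -0.74 ± 0.16. Gga3 and Mif4gd overlap it on the other strand.

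Mrps6 had the largest fall in total mRNA. It was at 13.5, 13.3 and 11.4 CPM with LPS plus torin1, below each LPS library given above, a change of -0.79 ± 0.11 with an adjusted p of 0.000786. Mrpl30 was at 108, 97.6 and 83.3 CPM with LPS and 58.8, 72.6 and 53.0 CPM with torin1 added. These groups did not overlap, and the change was -0.65 ± 0.14. Mrpl42 changed by -0.63 ± 0.16, from 44.8, 40.0 and 35.4 CPM to 24.4, 31.3 and 22.1 CPM. The single rise was Mrpl41, from 18.8, 19.3 and 18.99 CPM to 21.0, 22.0 and 21.7 CPM (0.18 ± 0.09). Its groups did not overlap, but the call was lost with DESeq2 and when any 1 of the 3 experiments was left out.

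**Figure D2:**
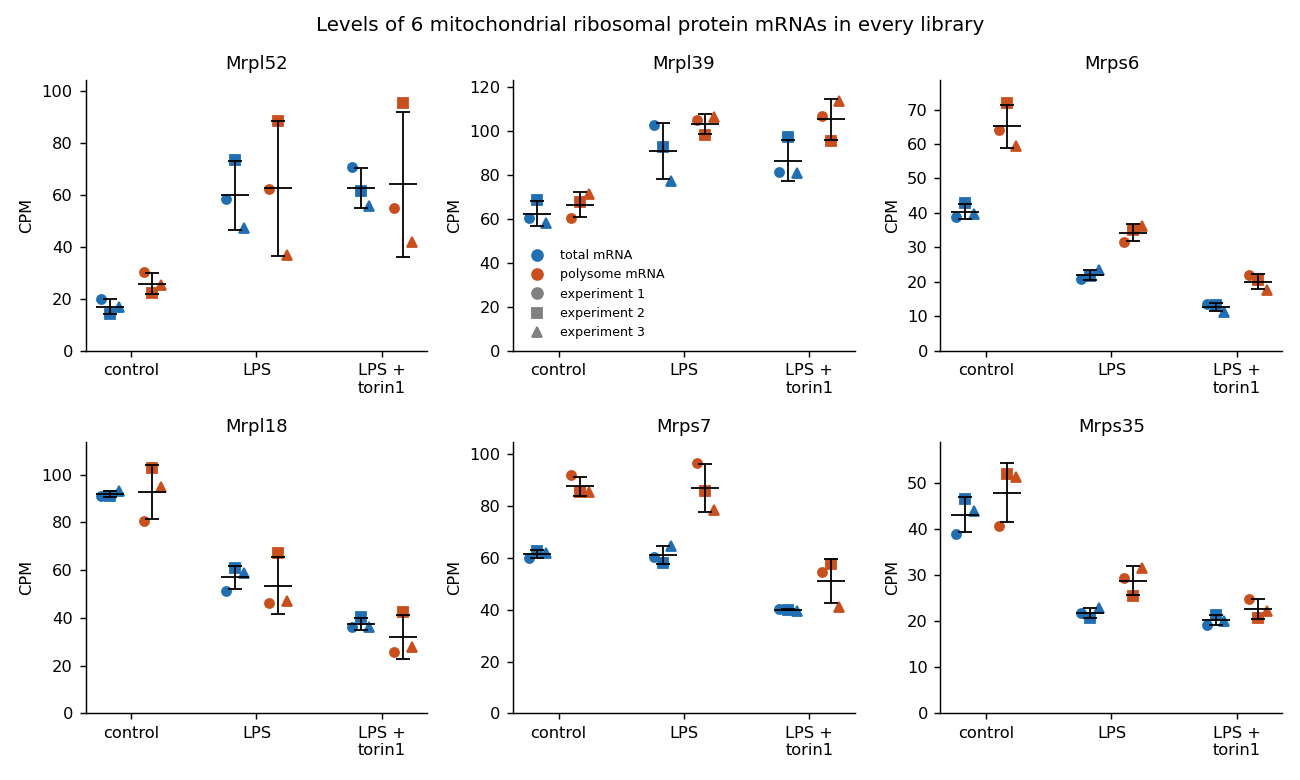
CPM of 6 members in every library by treatment, with points for libraries, the mean as a line and the SD as bars (n = 3), blue for total and orange for polysome mRNA. Mrps7 total mRNA stayed at 58.1 to 64.8 CPM in control and LPS libraries and was at 39.7 to 40.1 CPM in the 3 with torin1, while Mrpl52 remained high with torin1.

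On polysomes 38 members fell with torin1 and 0 rose, where 38.4% of all genes passed, 20.3% higher and 18.2% lower. At an adjusted p of at most 0.05, 7 fell and 0 rose, where 5.75% and 8.10% of all genes did. The median was -0.33, against 0.00 over all genes. The largest falls were in Mrpl30 (-0.78 ± 0.25), Mrps6 (-0.75 ± 0.15) and Mrps7. Mrpl20, the counterpart of a bacterial assembly protein, followed at -0.72 ± 0.18, from 213, 190 and 149 CPM to 124.1, 118.4 and 88.3 CPM. Mrpl18 was at 46.3, 67.2 and 46.9 CPM with LPS and 25.7, 42.5 and 27.99 CPM with torin1 added (-0.71 ± 0.23). Within each experiment both fell, and their groups did not overlap. The number of calls depended on single experiments: it was 6 without experiment 1 and 4 without experiment 3, where 15.8% and 10.6% of all genes passed, and 46 without experiment 2, where 46.1% passed. The median moved less, from -0.28 to -0.34 over these fits. Mrpl30 and Mrpl18 lost their polysome calls without experiment 1 or 3, and Mrps6 and Mrps7 passed in each.

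Of the stalk proteins, Mrpl11 fell in both RNA types (-0.17 ± 0.09 in total and -0.35 ± 0.17 on polysomes), calls that were lost when any 1 of the 3 experiments was left out, and Mrpl10 was at 0.03 ± 0.09 and 0.01 ± 0.16 and did not pass. Mrpl12, the remaining stalk protein, was at -0.36 ± 0.28 and -0.42 ± 0.40 without passing, although with the experiment as a block its polysome fall passed (-0.44, adjusted p of 0.144). Mrpl45 was at -0.04 ± 0.10 and -0.09 ± 0.16, and Mrps12 at -0.12 ± 0.34 and -0.42 ± 0.61. Neither passed. Mrps18c fell (-0.29 ± 0.15 and -0.42 ± 0.21) but not without experiment 1 or 3, and Mrps18a (-0.10 ± 0.09 and -0.24 ± 0.17) and Mrps18b (-0.07 ± 0.11 and -0.10 ± 0.14) did not pass. With the block, polysome Mrps18a passed too (-0.24, adjusted p of 0.132). Mrpl52 and Mrpl39, the leading risers with LPS, were at 0.07 ± 0.17 and -0.07 ± 0.13 in total mRNA with torin1 added, and Mrps30 was at -0.06 ± 0.10. Mrps36 fell in total mRNA (-0.38 ± 0.14) and was at -0.19 ± 0.25 on polysomes.

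**Figure D3:**
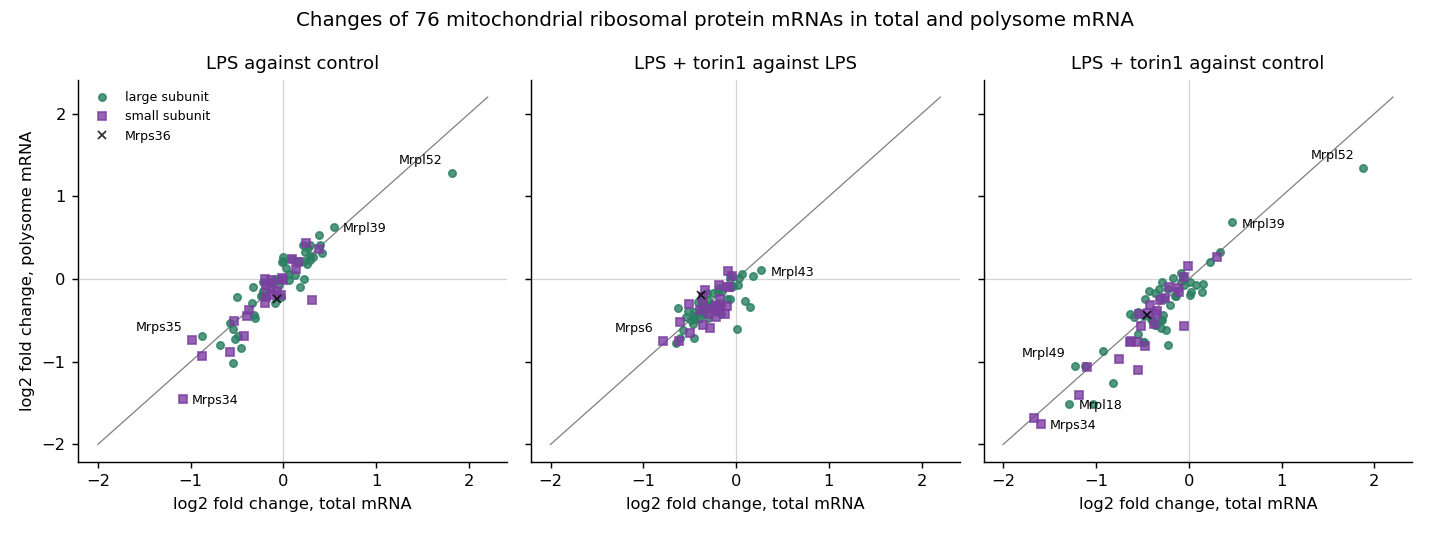
Log2 fold change of each member in polysome mRNA (y) against total mRNA (x) for the 3 comparisons, with large-subunit genes as circles, small-subunit genes as squares and Mrps36 as a cross. The diagonal marks equal change. With torin1 added to LPS, 68 of the 76 points lay below 0 in total mRNA and 68 on polysomes, with medians of -0.27 and -0.33.

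Set against control, LPS plus torin1 left 51 members lower and 6 higher in total mRNA, where 66.7% of all genes passed (33.6% lower and 33.1% higher). At an adjusted p of at most 0.05, 41 were lower and 4 higher, where 23.8% and 23.7% of all genes were. The median was -0.33, against 0.00 over all genes. On polysomes 42 were lower and 4 higher, where 58.2% passed (29.7% lower and 28.5% higher), and the median was -0.42, against -0.01. At the stricter threshold 28 were lower and 2 higher there, where 16.8% and 18.3% of all genes were. The 3 comparisons share groups, so their values stand side by side and are not independent. Mrps6 had the largest fall in total mRNA: its 3 libraries with torin1 were 3.17-fold below control on the model's scale (-1.66 ± 0.11, adjusted p of 1.77e-06), and on polysomes the change was -1.68 ± 0.15. Its polysome mRNA went from 64.1, 71.9 and 59.4 CPM to 31.4, 35.01 and 36.2 CPM with LPS and 21.9, 20.5 and 17.7 CPM with LPS plus torin1, with no overlap between any pair of groups.

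Mrpl18, the counterpart of a bacterial protein of the central protuberance, also stepped down with each treatment. Its total mRNA was at 91.2, 90.9 and 93.2 CPM in control, 51.4, 60.8 and 58.8 CPM with LPS and 36.2, 40.6 and 36.1 CPM with LPS plus torin1. The 3 groups did not overlap, and the change against control was -1.29 ± 0.10 (adjusted p of 4e-06), and -1.51 ± 0.23 on polysomes. Tcp1 overlaps it on the other strand. Mrps34 read -1.59 ± 0.57 in total mRNA but rests on few counts, at 2.46, 0.819 and 1.17 CPM in control and 0.560, 0.404 and 0.489 CPM with LPS plus torin1, and it shares its strand with Nme3. Mrpl34, the counterpart of bacterial L34, fell by 1.52 on the log2 scale on polysomes (SE 0.42), from 29.7, 17.7 and 26.1 CPM to 6.596, 13.6 and 4.99 CPM. Mrpl52 (1.88 ± 0.18), Mrpl39 (0.47 ± 0.13) and Mrpl24 (0.34 ± 0.13) led the rises in total mRNA. On polysomes Mrpl52 (1.34 ± 0.36), Mrpl39 (0.69 ± 0.13) and Mrps18b (0.26 ± 0.14) led, but Mrps18b lost its call without experiment 1 or 3. Without experiments 1, 2 and 3 in turn the polysome count was 33, 51 and 21, where 40.4%, 67.8% and 37.0% of all genes passed.

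Of the members with particular roles, Mrpl12 fell in total mRNA (-0.81 ± 0.27) and on polysomes (-1.25 ± 0.40) with LPS plus torin1. Mrpl11 fell in total mRNA by 0.14 (SE 0.09), a call lost when any 1 of the 3 experiments was left out, and Mrpl10 (-0.08 ± 0.09) and Mrpl45 (0.02 ± 0.10) did not pass. Mrps12 fell by 0.55 (SE 0.34), but not without experiment 1 or 3. Mrps30 fell by 0.28 (SE 0.10) and Mrps36 by 0.45 (SE 0.14), while Mrps18a (0.15 ± 0.09) and Mrps18b (0.30 ± 0.11) rose and Mrps18c was at -0.05 ± 0.15.

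Most members were better represented on heavy polysomes than in total mRNA under every treatment. In control cells 54 of 76 were higher on polysomes and 6 lower, where 69.6% of all genes passed (36.3% higher and 33.2% lower). The median difference was 0.50, or 1.42-fold, against 0.03 over all genes. With LPS 53 were higher and 8 lower (median 0.53, against 0.04 over all genes, of which 34.1% were higher and 31.1% lower, 65.2% in all). With LPS plus torin1 50 were higher and 7 lower (median 0.45, against 0.00 over all genes, of which 27.8% went each way, 55.6% in all). Libraries were scaled to each other, so these are differences relative to the bulk of genes and not shares of an mRNA on polysomes. The LPS plus torin1 polysome library of experiment 2 differed most from its partners. Chi-square of counts per degree of freedom was 210 and 252 against experiments 1 and 3, and 69.9 between those. With LPS plus torin1, Mrpl14 read 0.32, 1.26 and 0.02 in experiments 1 to 3, and Mrpl23 0.75, 0.39 and 0.49. Without single experiments 46 to 54 members were called there. The part of this library in the median was not tested.

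Members ranged widely. Mrpl1, which forms the other stalk of the large subunit, was at 41.7, 47.5 and 49.4 CPM in control total mRNA and 19.1, 24.3 and 26.4 CPM on polysomes, a difference of -0.99 ± 0.16. Mrps15 was at 50.7, 59.4 and 47.0 CPM in total mRNA and 23.1, 33.7 and 25.4 CPM on polysomes (-0.93 ± 0.14). For both, all polysome libraries lay below all total libraries, and with LPS plus torin1 the differences were still -0.73 and -0.93. Mrps22 was at -0.69 ± 0.13 in control, and Mrps5, Mrps9 and Mrpl47 were also lower on polysomes under each treatment. At the other end, Mrpl12 was at 1.39 ± 0.37, Mrps12 at 1.36 ± 0.54 and Mrps34, which rests on few counts, at 1.33 ± 0.64 in control. Mrpl43 followed at 1.27 ± 0.28. The call of Mrps34 was lost without experiment 3. Mrpl20 was 1.04 ± 0.14 higher on polysomes, at 157, 150 and 169 CPM against 78.8, 74.9 and 77.9 CPM in total mRNA.

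Coding length went with this difference. Members have short coding sequences, with a median of 582 bases (195 to 1326), against 1362 over the 10754 genes of the table with a length. Across the 76 members, Spearman's rho between coding length and the polysome minus total difference was -0.48 in control, -0.47 with LPS and -0.43 with LPS plus torin1, against -0.28, -0.32 and -0.30 across the 10754 genes. These are descriptions across genes of the same libraries, which are not independent. Genes within the members' range of lengths (5183 genes) had a median difference of 0.22, 0.23 and 0.17 in the 3 treatments, below the members' medians. From 300 to 450 bases the 20 members had a median of 0.71 in control and all 562 genes 0.55. From 450 to 600 bases the medians were 0.60 (17 members) and 0.34 (687 genes), the widest gap of the classes with over 3 members. From 600 to 900 bases these were 0.36 (21 members) and 0.20 (1493 genes), and from 900 to 1200 bases 0.09 (11 members) and 0.11 (1639 genes).

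**Figure D4:**
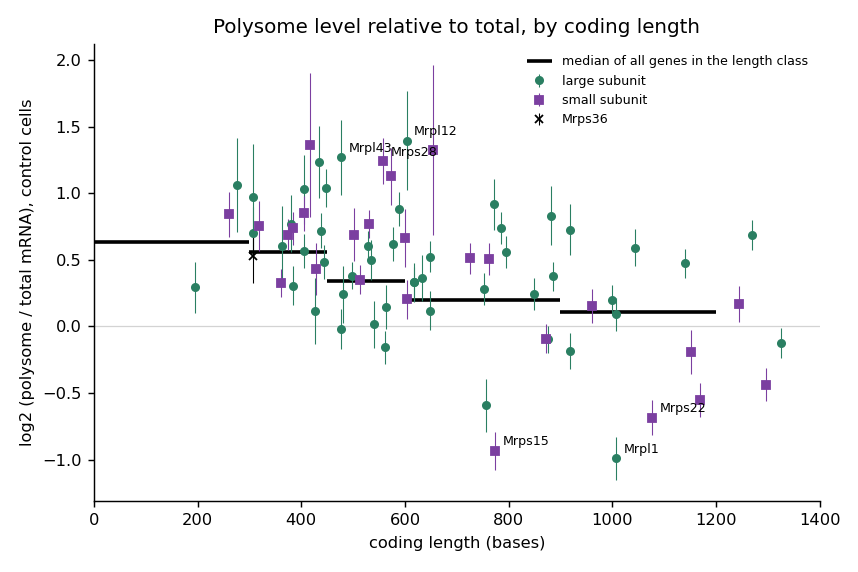
Polysome minus total log2 difference in control cells (y, with the SE as bars) of each member against its coding length in bases (x), with large-subunit genes as circles, small-subunit genes as squares and Mrps36 as a cross. Black lines are medians of all genes in classes of length: the 20 members from 300 to 450 bases had a median of 0.71 and the 11 from 900 to 1200 bases 0.09.

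The change in polysome mRNA beyond that in total mRNA was taken from a model over all libraries in which each treatment effect may depend on the RNA fraction, with a fold of at least 1.2 asked for. In edgeR 0 of 76 members and 0 of 11243 genes (0.0%) passed in each of the 3 comparisons. At an unadjusted p under 0.05 there were 1 member and 44 genes for LPS against control, 0 and 110 for torin1 added to LPS, and 1 and 145 for LPS plus torin1 against control. Each of these counts of genes is under the 0.05 share expected of 11243 genes with no change, so the test ran conservative here. The fit took the total and polysome libraries of a lysate as independent, although they correlated at a mean r of 0.580. DESeq2 gave 0 members in each, where 0.00889%, 0.0623% and 0.00889% of all genes passed. In edgeR with the lysate as a block 0 members passed too, where 0.0%, 0.222% and 0.0267% of all genes did. Calls of 0 cannot show that polysome levels followed total levels. In simulations with 200 of 11243 genes changed on polysomes alone, edgeR recovered 0% of log2 changes of 0.4 and 60% of log2 changes of 1. The simulated libraries were drawn independently, without the correlation within lysates and experiments. Recovery also depends on the share of genes changed, so these percentages need not hold for the measured libraries. The median differences over members were 0.00, -0.06 and -0.07, against 0.00, -0.02 and -0.02 over all genes. The smallest p belonged to Mrps28 for LPS against control (-0.56 ± 0.24, unadjusted p of 0.0336), to Mrpl23 for torin1 added to LPS (-0.39, p of 0.0522) and to Mrps28 again for LPS plus torin1 against control (-0.53, p of 0.0403). Mrps28, the member related to bacterial S1, was at 48.2, 29.9 and 42.5 CPM on control polysomes, 32.6, 39.0 and 29.9 CPM with LPS and 27.9, 30.2 and 22.2 CPM with LPS plus torin1, so polysome mRNA of experiment 2 started low and did not fall as in the others. The next smallest p belonged to Mrpl46 (-0.27) and Mrps35 (0.25) for LPS against control, to Mrpl55 (-0.51) and Mrpl14 (-0.64) for torin1 added to LPS, and to Mrps23 (-0.23) and Mrpl14 (-0.59) for LPS plus torin1 against control. A fit without experiment 2 gave 6 members lower and 0 higher for LPS plus torin1 against control, where 3.82% of all genes passed (3.62% lower). At the same thresholds, the study's own test (anota2seq) reported altered translation efficiency for a subset of mRNAs after LPS, which torin1 almost completely reversed. The analysis of partial variance on which that test rests was rewritten here. It gave the same outcome as edgeR, no call, for each of the 60 values of named members. In the simulations it recovered 75% of log2 changes of 1.

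Cytosolic ribosomal proteins are given beside these. The 92 cytosolic ribosomal protein symbols of the table include pseudogenes. With torin1 added to LPS they gave 2 higher and 12 lower in total mRNA (median -0.10), where 27.3% of all genes rose and 26.4% fell. On polysomes they gave 74 lower and 0 higher (median -0.67), where 18.2% of all genes fell and 20.3% rose. The median interaction was -0.59 over these genes and -0.06 over the mitochondrial ribosomal protein genes, with 0 passing in either list and 44 and 0 at an unadjusted p under 0.05. With LPS alone 67 cytosolic ribosomal protein genes rose in total mRNA and 0 fell (median 0.29), where 32.2% and 34.3% of all genes did. Their polysome minus total median was 0.46 in control, 0.53 with LPS and -0.05 with LPS plus torin1, against 0.50, 0.53 and 0.45 for the mitochondrial ones. The difference between the lists was not tested.

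**Figure D5:**
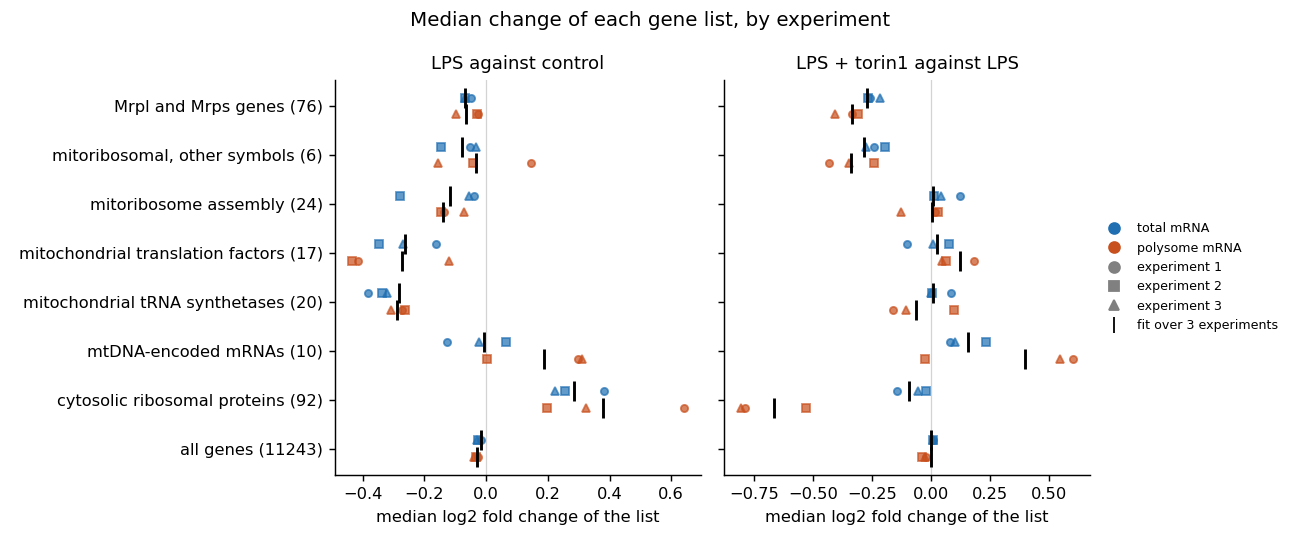
Median log2 fold change (x) of the mitochondrial ribosomal protein genes, related lists and all genes for LPS against control (left) and LPS plus torin1 against LPS (right). Points are the medians within each experiment, blue for total and orange for polysome mRNA, and bars the median of the fitted values; on the right, cytosolic ribosomal protein genes had fitted medians of -0.10 in total and -0.67 in polysome mRNA, and mitochondrial ones -0.27 and -0.33.

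Other genes of mitochondrial translation are set beside the 27.3% of all genes that rose and the 26.4% that fell in total mRNA with torin1 added to LPS. The lists were not tested against each other. All 6 mitochondrial ribosomal proteins that carry other symbols were listed, and 5 fell in total mRNA and 3 on polysomes with torin1 added to LPS (medians -0.29 and -0.34), led by Gadd45gip1 at -0.40 ± 0.21 and -0.54 ± 0.29. Of 24 factors that assemble the mitochondrial ribosome, 8 rose and 4 fell in total mRNA (median 0.01), with the largest change in Gtpbp10 at 0.44. Of 17 mitochondrial translation and mRNA factors, 2 rose and 3 fell (median 0.02), and Slirp, which stabilises mitochondrial mRNAs, had the largest change at -0.72 ± 0.17 and -0.91 ± 0.25 on polysomes. Of 20 mitochondrial tRNA synthetases, 3 rose and 3 fell (median 0.01), with Yars2 at -0.46 ± 0.12. Those mRNAs of the mitochondrial genome that the count table holds, 10 templates of these ribosomes, gave 0 calls in total mRNA (median 0.16).

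With LPS against control, 32.2% of all genes rose and 34.3% fell in total mRNA, and the lists stood as follows. The 6 mitochondrial ribosomal proteins with other symbols gave 0 rises and 3 falls (median -0.08). The 10 mRNAs of the mitochondrial genome in the count table gave 0 calls (median -0.01). Assembly factors gave 4 rises and 9 falls (median -0.12), with Rbfa at -1.12 ± 0.17. Translation factors gave 2 and 8 (median -0.26), with the initiation factor Mtif3 at -1.27 ± 0.51, and tRNA synthetases 0 and 10 (median -0.28), with Pars2 at -1.07 ± 0.16. Of the 10 regulators of mitochondrial genes measured, Myc rose by 3.42 ± 0.22 and Gabpa, a DNA-binding subunit of an ETS factor, by 0.25 ± 0.10. Ppargc1b, a coactivator of mitochondrial biogenesis, fell by 2.32 (SE 0.24), the mitochondrial RNA polymerase Polrmt by 0.65 (SE 0.35) and Tfb2m by 0.41 (SE 0.15). With torin1 added to LPS, Myc fell by 0.65 (SE 0.20), while Ppargc1b rose by 1.09 ± 0.24, Tfb2m by 0.36 ± 0.15 and Yy1 by 0.19 ± 0.09.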

How the data were processed

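Total and heavy-polysome mRNA were measured in 18 libraries of RAW264.7 cells. The authors made stranded libraries after removal of ribosomal RNA, aligned paired-end reads to GRCm38 with Hisat2 in a nextflow pipeline and counted them with featureCounts and Ensembl genes. Protein-coding genes without a count of 0 were kept. The deposited values are raw counts. Versions of Hisat2 and the annotation, and the strand setting, are not given in the sources used here.

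Counts were fitted in R 4.3.3 with edgeR 4.0.16 (TMM, quasi-likelihood test, Benjamini-Hochberg adjustment over 11243 genes, threshold 0.25), fitting total and polysome mRNA apart, 9 libraries each. Interactions and polysome minus total differences came from 1 fit of 18 libraries. CPM values are scaled by TMM over 18 libraries. The study's anota2seq was not installed. Its analysis of partial variance was written with limma 3.58.1 (pseudocount 0.5) as an alternative. The others were DESeq2 1.42.0, its size factors, library totals (added after the data were seen), a minimum of 10 counts, a replicate block, each experiment left out, only the treatments compared, no minimum fold and an adjusted p of 0.05. Scripts were tested on simulated data. Depth of 27800983 to 47725557 counts covers counting error only. P-values of the main fits measure the spread within groups over 3 experiments, with no term for the experiment. The main fit of 18 libraries also took the total and polysome libraries of a lysate as independent.

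Experiment numbers in the labels and shared lysates give the pairing. Deviations from group means correlated between same-numbered libraries at a mean r of 0.417 (lowest 0.127) in total mRNA and 0.321 (lowest -0.141) on polysomes, and at 0.580 between total and polysome libraries of a lysate.

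The members and lists were chosen with earlier results of these data known. Subunits and related lists came from general knowledge. Named were, for each comparison, the 3 rises and 3 falls largest in size that passed and went the same way in all experiments (for the difference, the smallest p), the stalk proteins, Mrps12, Mrpl45, the Mrps18 paralogues, Mrps30, Mrps36, (Mrpl58, also in the rule, is not a symbol of the table analysed) the 3 most and 3 least abundant members, ends of ranges, the largest change of each related list and each regulator that passed.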

Additional observations from a re-analysis of the deposited data

Results flagged for a closer look

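Mrps18a was set aside because its total and polysome mRNA went opposite ways in all 3 experiments when LPS plus torin1 was compared with control. Total mRNA was at 46.0, 46.6 and 42.4 CPM in control and 49.5, 52.2 and 48.3 CPM with LPS plus torin1 (0.15 on the log2 scale, adjusted p of 0.17 in edgeR). Polysome mRNA was at 84.7, 93.0 and 71.2 CPM and 84.5, 83.6 and 67.4 CPM (-0.06, adjusted p of 0.819). The polysome change minus the total change was -0.21. The interaction model gave -0.23 with an unadjusted p of 0.211 and an adjusted p of 0.998, so the difference did not pass.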

How the results depend on the processing

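Over settings other than single experiments left out, library totals and the stricter threshold, no count of members called moved by over 1.5 times. Library totals, chosen after the data were seen, gave medians of -0.44 (total) and -0.42 (polysome) for LPS against control, where all genes moved to -0.38 in both, with 52 polysome calls (2 higher, 50 lower; of all genes 13.7% higher, 54.3% lower). For torin1 added to LPS they gave -0.20 and -0.27, where all genes were at 0.07 and 0.06, and 21 polysome calls, all lower (of all genes 23.7% higher, 14.5% lower), and for LPS plus torin1 against control -0.63 and -0.71, where all genes were at -0.30. With them Mrpl11 (-0.34), Mrpl20 (-0.20), Mrpl45 (-0.31), Mrpl48 (-0.16), Mrps10 (-0.23), Mrps18a (-0.12) and Mrps18c (-0.13) turned negative in total mRNA for LPS against control, as did Mrpl45 on polysomes (-0.30). Against control with torin1, Mrpl45 (-0.28), Mrps18a (-0.15) and polysome Mrps18b (-0.026) turned too. DESeq2's Wald test and its size factors gave medians of -0.045 and -0.044 for LPS against control in total mRNA. At an adjusted p of 0.05 24 members were called for LPS against control and 25 for torin1 added to LPS in total mRNA, and 9, 7 and 30 on polysomes for LPS against control, torin1 added to LPS and LPS plus torin1 against control. Leaving out single experiments gave total mRNA medians of -0.095 to -0.049 for LPS against control and -0.26 to -0.22 for torin1 added to LPS, with 31 to 42 calls for the latter. Polysome calls ran from 12 to 46, 4 to 46 and 21 to 51 in that order, with medians of -0.34 to -0.28 and -0.42 to -0.30 for the comparisons with torin1, and interaction calls from 0 to 6 for LPS plus torin1 against control. Mrps12 with torin1 added to LPS ran from -0.47 to 0.50 in total mRNA and the polysome minus total difference of Mrps34 with LPS plus torin1 from -0.22 to 1.64, reversed without experiment 2 in both. The analysis of partial variance gave a median of -0.15 for torin1 added to LPS. The cause of these shifts was not tested.

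The replicate block was the experiment where total and polysome mRNA were fitted apart, and the lysate in the fit of all libraries together. With it, no count of members called moved by over 1.5 times and 0 were called in the interaction. The share of all genes called rose with the block as well. With torin1 added to LPS it went from 53.7% to 64.0% in total mRNA and from 38.4% to 49.7% on polysomes. For LPS against control it went from 66.5% to 73.1% and from 55.1% to 62.8%. Of the values of named members the block added 17 calls and removed 0. Beside polysome Mrpl12 (-0.44) and Mrps18a (-0.24) with torin1 added to LPS, these were, for that comparison, Mrpl43 in total mRNA and Mrps10 and Mrps21 on polysomes. For LPS against control they were Mrps21 in total mRNA and Mrps12, Mrps18a and Mrps36 on polysomes, and for LPS plus torin1 against control Mrpl11 and Mrps21 on polysomes. For polysome minus total they were Mrpl45 and Mrps10 in control and LPS, Mrps34 in LPS and Mrpl18 in LPS plus torin1. Of the members, Mrps34 is the one limited by depth, with a lowest count of 8.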

Other observations

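On polysomes, the 10 mRNAs of the mitochondrial genome in the count table gave 7 rises and 0 falls for LPS plus torin1 against control (median 0.55), where 28.5% of all genes rose. They were led by mt-Co1, a subunit of cytochrome oxidase, at 0.78 ± 0.21 (edgeR). The experiments were unlike, with medians of 0.95, -0.06 and 0.85. Their polysome minus total median was -2.60 in control, -2.37 with LPS and -2.13 with LPS plus torin1. The summed CPM of these mRNAs on polysomes was 5581 ± 1264 (SD, n = 3) in control, 7222 ± 829 with LPS and 9068 ± 1813 with LPS plus torin1.

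Mitochondrial tRNA synthetases, which charge the tRNAs used inside mitochondria, gave 13 falls and 0 rises of 20 in total mRNA for LPS plus torin1 against control (median -0.37), where 33.6% of all genes fell, with Cars2 at -1.23 ± 0.16, and 13 falls on polysomes (median -0.39), where 29.7% fell, with Cars2 at -1.45 ± 0.20.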
